A study of Mus musculus with 20 samples.

Results

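The 7 genes that encode subunits of the N-methyl-D-aspartate (NMDA) receptor were followed in differentiating mouse cells: Grin1, Grin2a, Grin2b, Grin2c, Grin2d, Grin3a and Grin3b. They were taken by gene symbol from the 37561 genes that all tables of the series share, and each symbol had 1 entry per table. The cells were spherical neural masses made from D3 embryonic stem cells (strain 129s2/SvPas), which had been kept on mouse embryo fibroblast feeders and were then directed toward dopaminergic neurons. The control line carried a short hairpin RNA against luciferase, an enzyme that mouse cells lack. The HPRT knockdown line carried a hairpin against HPRT, the purine salvage enzyme, and the methods of the study describe that hairpin as directed against the human gene. Both lines came from virus-transduced cells, retroviral per the labels and lentiviral per the methods, and the methods add selection in puromycin. Sequencing covered every day of differentiation up to day 4, starting with day 0, and then every other day until day 14, with 1 library per line and day, 20 libraries in all. The labels speak of replicated cultures, and the methods of pooling the RNAs of a time point. The sources describe 1 transduced population per line, and no day had a replicate, so every error and p-value below rests on the spread over days. The days of a line are successive samples of 1 population, not independent replicates. An effect of the hairpin cannot be told apart from another difference between the populations. The study treated day 6 as discrepant, and it is given by its values and left out of the tests, which use the other 9 days.

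NMDA receptors are glutamate-gated cation channels that need glutamate together with glycine or D-serine to open, and that are blocked by magnesium until the membrane depolarizes. Grin1 encodes GluN1, the obligatory subunit that binds the co-agonist. The Grin2 genes encode the glutamate-binding GluN2 subunits: GluN2B and GluN2D prevail in the embryonic brain, and GluN2A and GluN2C rise after birth. The Grin3 genes encode GluN3A and GluN3B, glycine-binding subunits that lower the calcium permeability of the channel.

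The deposited tables give log2 differences between libraries, not levels. For 5 subunits (Grin1, Grin2a, Grin2b, Grin2c and Grin2d) the aligned reads behind them could be recovered, as whole reads plus parts of reads in steps of 1 in 49 bases. For Grin3a and Grin3b they could not. Reads divided by the size factor of the library are called normalized reads here. Few reads stood behind 3 members. Grin2a had 354 reads in all 20 libraries together, with a median of 13 per library, and Grin2c had 247 with a median of 9.5. Grin3b lay under a log2 value of 4, or 16 normalized reads, in 18 of 28 tables by the rounding of its deposited values. These 3 fell under the filter on low values (a log2 normalized count of 4 or more in the typical table), which Grin1, Grin2b, Grin2d and Grin3a passed. Grin1 had 9567 reads in total, Grin2d 1381 and Grin2b 991.

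The targeted gene and the identity of the cultures were checked first. Hprt held 535 to 1407 reads in the control libraries and 19.2 to 198 in the knockdown libraries, without overlap, and its log2 ratio (knockdown over control) averaged -4.00 ± 0.89 (SD, 9 days; limma, adjusted p = 1.4e-05). Size factors ran from 0.823 to 1.60 times that of the median library. Of 12 neuronal markers, 11 were in the tables and 10 passed the filter (Rbfox3 did not), among them Tubb3, Nefl and Dcx. Transcripts of other lineages passed it too: 9 of 9 oligodendrocyte lineage markers, 5 of 5 astrocyte and radial glia markers, 6 of 6 pluripotency markers and 6 of 6 fibroblast markers. Over the 9 days tested 7 neuronal markers were called lower in the knockdown and none higher, 5 oligodendrocyte and 4 astrocyte markers were called higher, and 6 of 6 pluripotency markers and 1 of 6 fibroblast markers lower. Of 8 dopaminergic markers 6 passed the filter (Slc6a3 and Pitx3 did not), and 3 were called higher. Of all 13626 genes tested 26.1% were called higher and 26.3% lower. In bulk RNA of such mixed cultures, fewer cells of a type and less RNA per cell cannot be told apart.

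Grin1 had the highest level of the 5 subunits with recovered reads in both lines, followed by Grin2d. Levels were compared as normalized reads per kilobase of annotated exon, since the merged exons of the gene models run from 5.04 kb (Grin2c) to 9.70 kb (Grin1). In the control line the median over 10 libraries was 36.8 for Grin1, 6.88 for Grin2d, 5.15 for Grin2b, 3.39 for Grin2a and 1.43 for Grin2c. In the knockdown line it was 31.5 for Grin1, 9.15 for Grin2d, 2.80 for Grin2b, 3.12 for Grin2c and 1.75 for Grin2a. Neighbors in the order of the mean log2 levels were compared by exact two-sided sign-flip permutation tests over 9 days, with adjustment over 8 comparisons. The order was set from these same values, so the p-values give no independent support for it. In the control line Grin1 lay 2.21 ± 0.59 log2 units above Grin2d (SD, 9 days), Grin2d 1.01 ± 0.77 above Grin2b and Grin2a 1.47 ± 0.80 above Grin2c, each on 9 of 9 days with the smallest p the test allows (exact p = 0.0039, adjusted 0.0078). Grin2b and Grin2a did not differ beyond their spread in that line (0.37 ± 1.09, exact p = 0.32). In the knockdown line Grin2b and Grin2c did not (0.0027 ± 1.18, exact p = 1), and Grin2a came last, 1.12 ± 1.05 under Grin2c on 8 of 9 days (exact p = 0.020, adjusted 0.026). Few reads stood behind that last order: on day 12 Grin2a and Grin2c held 3 reads each, and on day 10 they held 2 and 6.

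**Figure D1:**
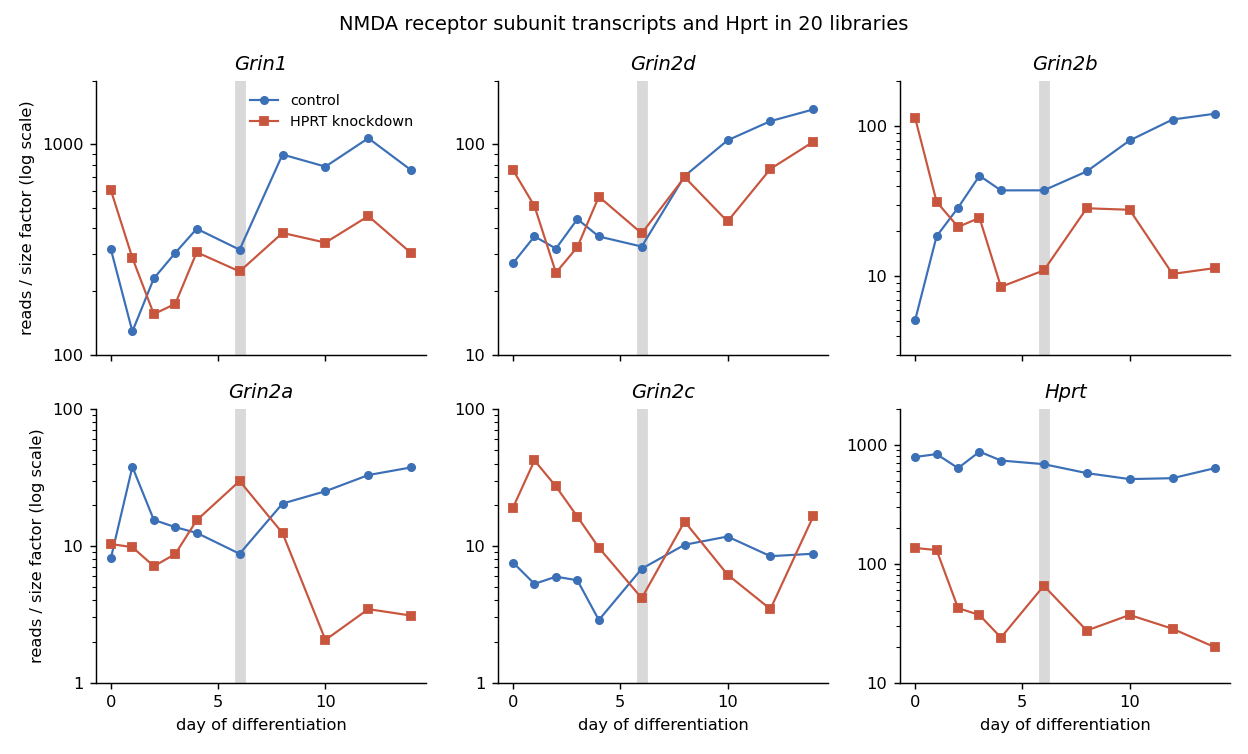
Normalized reads (reads over size factor, log axis) of 5 subunit genes and Hprt by day of differentiation, 1 point per library, blue circles for the control line and red squares for the HPRT knockdown line; the gray band marks day 6, which was not tested. Grin1 and Grin2b of the control line lie above the knockdown line from day 2 on, and Hprt of the knockdown line lies under the control line on all 10 days.

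Grin1, the subunit every receptor needs, was higher in the knockdown line on days 0 and 1 and lower on each later day. The gene lies on chromosome 2 (NCBIM37, 25146701 to 25174707, minus strand) in 18 merged exon blocks. The control libraries held 310.2, 147 and 193 reads on days 0, 1 and 2, then 489, 414 and 324 on days 3, 4 and 6, and 877, 936, 1526 and 945 on days 8, 10, 12 and 14. The knockdown libraries held 878, 294 and 132 reads on days 0, 1 and 2, then 159.9, 253 and 239 on days 3, 4 and 6, and 428, 332, 396 and 294 on days 8, 10, 12 and 14. After division by the size factor the control libraries of days 8 to 14 were the highest of the series for this gene, and the day 0 library was the highest of the knockdown line. The log2 ratio was 0.95 on day 0 and 1.14 on day 1, between -0.81 and -0.37 from day 2 to day 6, and -1.22, -1.19, -1.24 and -1.30 from day 8 to day 14. It averaged 0.071 ± 0.90 over days 0 to 4 (SD, 5 days) and -1.24 ± 0.046 over days 8 to 14 (SD, 4 days), and the late levels lay between 0.405 and 0.437 of the control level. Exact 95% intervals of the ratio, which cover counting error only, excluded 1 on all 10 days, above it on 2 and below it on 8. The mean over the course, -0.51 ± 0.94 (SD, 9 days), did not pass the test (limma, adjusted p = 0.16). Of 9 limma fits with a day left out, only the 1 without day 1 passed, at -0.72 (adjusted p = 0.037). The highest adjusted p among them was 0.28.

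Grin2b, the GluN2 subunit typical of immature neurons, had the widest range of daily ratios of the 7 members, higher in the knockdown on days 0 and 1 and lower on each later day. The gene lies on chromosome 6 (NCBIM37, 135679844 to 136123529, minus strand). On day 0 the control library held 5 reads and the knockdown library 165, a ratio of 22.5 with an exact 95% interval of 9.44 to 70.2. The control line then held 21, 24, 75 and 39.0 reads on days 1 to 4, 38.4 on day 6, and 49, 96.0, 158 and 152 on days 8 to 14. The knockdown line held 32, 18, 22.4 and 7 reads on days 1 to 4, 10.5 on day 6, and 32, 26.96, 9.0 and 11 on days 8 to 14. The day 0 pair therefore stood opposite to the day 12 and day 14 pairs, in which the control held the higher count. The log2 ratio went from 4.49 on day 0 and 0.74 on day 1 to -2.13 on day 4 and -3.41 on day 14. On 7 of 10 days the counting interval lay below a ratio of 1, and on 1 day, day 0, above it. The mean over the course was -0.82 ± 2.41 (SD, 9 days; limma, adjusted p = 0.36). Of 9 limma fits with a day left out, only the 1 without day 0 passed, at -1.49 (adjusted p = 0.023). The highest adjusted p among them was 0.60.

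Grin2d, the other GluN2 subunit of the embryonic brain (chromosome 7, NCBIM37 53087253 to 53126298, minus strand), differed less between the lines on average. The control libraries held 26.7 reads on day 0 and 184 on days 12 and 14, the lowest and highest of that line, and the median was 55.4. The knockdown libraries held 20.7 on day 2, their lowest, 109.6 on day 0, their highest, and 99.7 on day 14, and the median was 49.2. The ranges of the lines overlapped, as did those of Grin1 and Grin2b. The log2 ratio was 1.48 on day 0, between -0.44 and 0.63 from day 1 to day 8, and -1.28, -0.76 and -0.50 on days 10, 12 and 14. The counting interval lay above a ratio of 1 on day 0 (1.81 to 4.40). It lay below 1 on days 10, 12 and 14, so early and late differences had opposite signs. The mean was -0.087 ± 0.83 (SD, 9 days; limma, adjusted p = 0.79), higher in the knockdown on 4 days and lower on 5.

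Grin2a, the subunit of mature forebrain synapses, was down to 2 or 3 reads in the knockdown libraries of days 10, 12 and 14. The gene lies on chromosome 16 (NCBIM37, 9577803 to 9995014, minus strand). The control line held 8 reads on day 0, 43 on day 1, 13, 22 and 13 on days 2 to 4, 9 on day 6, and 20, 30, 47 and 47 on days 8 to 14. The knockdown line held 15, 10, 6, 8 and 12.7 reads on days 0 to 4, 28.7 on day 6, and 14, 2, 3 and 3 on days 8 to 14. From day 10 on the counts of the lines were far apart, and before that the lower counts were found in either line. The ratio was 0.082 on day 10 (exact 95% interval 0.0095 to 0.32), 0.10 on day 12 (0.021 to 0.32) and 0.083 on day 14 (0.017 to 0.26). Its interval also excluded 1 on day 1 (ratio 0.25, 0.11 to 0.52) and, in the other direction, on day 6 (3.34, 1.56 to 8.11). The mean log2 ratio was -1.58 ± 1.59 (SD, 9 days), lower on 7 of 9 days. Since the gene fell under the filter it was tested only in the fit without a filter, where it passed (limma, adjusted p = 0.032).

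Grin2c, known from cerebellar granule cells and glia, was higher in the knockdown on each of days 0 to 4, as was Grin3a. The gene lies on chromosome 11 (NCBIM37, 115110483 to 115128557, minus strand). Its control libraries held 3 to 14 reads with a median of 8.2. The knockdown libraries held 27.7, 43, 23, 15 and 8 reads on days 0 to 4, 4 on day 6, and 17, 6, 3 and 16 on days 8 to 14. All knockdown counts of days 0 to 3 were above all counts of the control line, and the later counts overlapped. On day 1 the ratio was 7.85 with an exact 95% interval of 3.33 to 22.6, and the intervals of days 0, 1, 2 and 3 lay above 1. The log2 ratio averaged 1.97 ± 0.65 over days 0 to 4 (SD, 5 days) and -0.18 ± 1.09 over days 8 to 14 (SD, 4 days). The mean over 9 days was 1.01 ± 1.39 and did not pass the test in the fit without a filter (limma, adjusted p = 0.096).

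The upstream sequences of Grin1, Grin2c and Grin2d are shown because these members moved apart in the early days, with Grin2c higher in the knockdown on each of days 0 to 4 and the other two on some of them. RefSeq windows (GRCm38.p6) matched 4 of the 7 members, Grin1, Grin2c, Grin2d and Grin3b. Each line gives the 250 bases before the start of the gene, 5′ to 3′ on the strand of the gene, and capitals mark the letters CACGTG (an E-box, its own reverse complement) or GGGCGG (a GC box, looked for on both strands).
Grin1, chr2:25319188-25319437, minus strand: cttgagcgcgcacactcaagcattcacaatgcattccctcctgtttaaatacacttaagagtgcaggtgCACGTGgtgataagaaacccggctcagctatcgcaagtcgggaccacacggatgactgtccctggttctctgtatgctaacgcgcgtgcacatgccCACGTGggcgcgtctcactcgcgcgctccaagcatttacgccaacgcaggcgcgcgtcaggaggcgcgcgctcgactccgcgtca
Grin2c, chr11:115267244-115267493, minus strand: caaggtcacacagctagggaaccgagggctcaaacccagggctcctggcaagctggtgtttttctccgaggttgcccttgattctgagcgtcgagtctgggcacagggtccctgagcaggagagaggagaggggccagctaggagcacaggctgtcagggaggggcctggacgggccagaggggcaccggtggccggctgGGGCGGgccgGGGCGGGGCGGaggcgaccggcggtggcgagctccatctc
Grin2d, chr7:45866682-45866931, minus strand: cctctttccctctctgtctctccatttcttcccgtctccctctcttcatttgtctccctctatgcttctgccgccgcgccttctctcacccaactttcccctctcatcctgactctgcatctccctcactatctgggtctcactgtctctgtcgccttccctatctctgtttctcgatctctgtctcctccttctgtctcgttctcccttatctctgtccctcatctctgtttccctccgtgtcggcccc
The Grin1 window held CACGTG in 2 places, which 6.02% of 32851 windows of this length hold at least once. The Grin2c window held GGGCGG in 3 places, the last pair sharing 1 base, and 32.7% of windows hold it. The windows of Grin2d and Grin3b held neither. The letters of either end of the REST element, CAGCACC (5.73% of windows) and GGACAGC (5.28%), were in none of the 4 windows on either strand. GC content was 68.8% for Grin2c, 58.8% for Grin1, 54.4% for Grin2d and 46.0% for Grin3b, against a median of 52.4%.

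**Figure D2:**
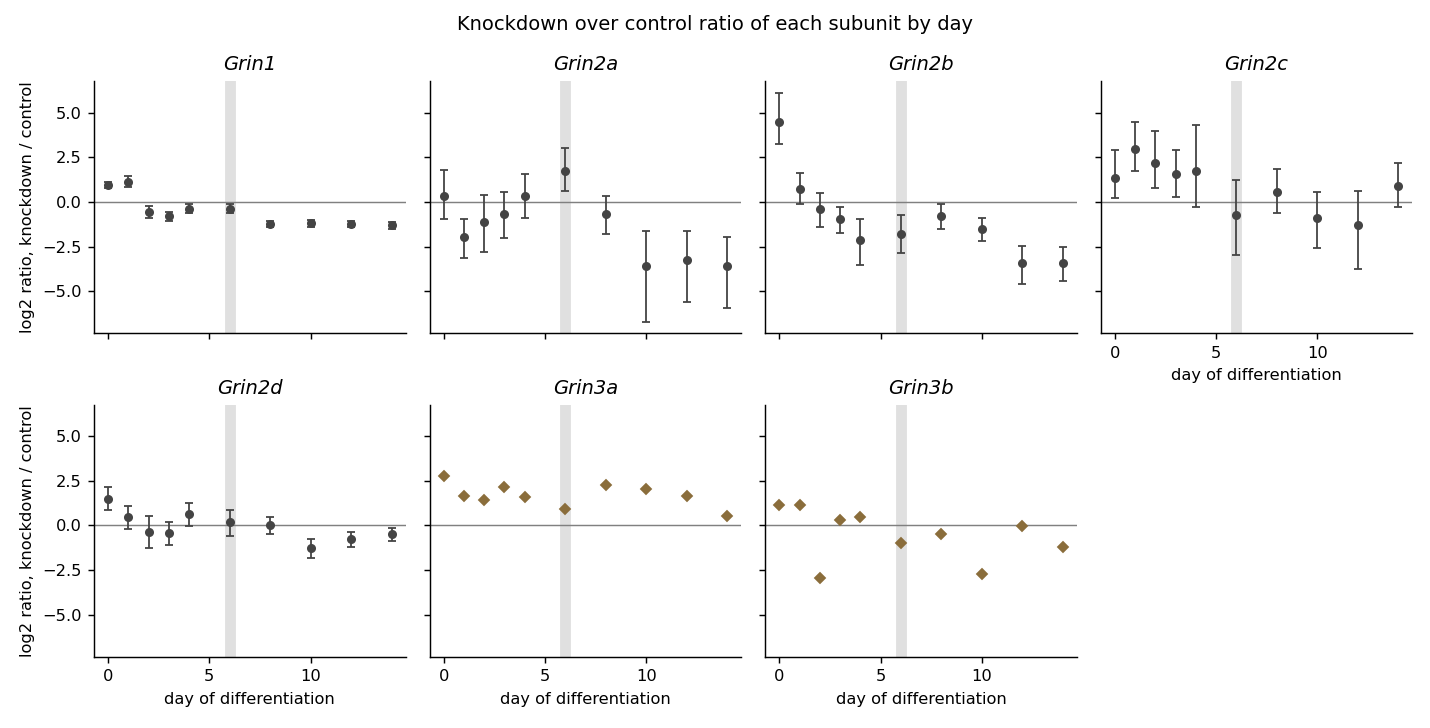
Log2 ratio of the HPRT knockdown over the control library of the same day for the 7 subunit genes, by day of differentiation; bars are exact 95% intervals for counting error where reads were recovered, diamonds have none, and the gray band marks day 6. Grin3a is above 0 on all 10 days, and Grin2a reaches -3.60 on day 10.

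Grin3a was the only member whose difference between the lines held one direction throughout and passed the test over the course in the filtered fit. The gene lies on chromosome 4 (NCBIM37, 49674483 to 49858616, minus strand), and Ppp3r2, which lies within its span on the same strand, shares no exon bases with it. Ppp3r2 fell under the filter, and its log2 ratio averaged 1.39 (range 0.28 to 4.16), the same direction as Grin3a. The log2 ratio of Grin3a was 2.76, 1.67, 1.40, 2.13 and 1.59 on days 0 to 4, 0.95 on day 6, and 2.25, 2.06, 1.63 and 0.54 on days 8 to 14. It was thus positive on each of the 10 days, highest on day 0 and lowest on day 14. The mean was 1.78 ± 0.62 (SD, 9 days; limma, adjusted p = 0.00011), with 0.0039, the smallest value possible, in the exact two-sided sign-flip permutation test. Of the 4 members over the filter, Grin3a was 1 called, while 52.5% of 13626 genes were called in the same comparison, so a call as such did not set it apart. In the fit without a filter Grin3a and Grin2a were called among 7 members, beside 40.5% of 19041 genes. Over all tables joined, values relative to the control library of day 0 ran from 0 to 1.17 in the control line and from 1.71 to 2.81 in the knockdown line. The lines did not overlap, which held for 2.05% of the genes over the filter. Its log2 values disagreed between tables by up to 0.070, and its reads could not be recovered.

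Grin3b (chromosome 10, NCBIM37 79433460 to 79439935, plus strand) showed no difference of a single direction. Its log2 ratio was 1.13 and 1.16 on days 0 and 1, -2.95 on day 2, 0.30 and 0.49 on days 3 and 4, -0.99 on day 6, and -0.46, -2.70, -0.055 and -1.23 on days 8 to 14. The sign changed between neighboring days. The mean was -0.48 ± 1.52 (SD, 9 days; limma without a filter, adjusted p = 0.46). Exons of the minus-strand gene ORF61 share 1059 bases, 32.1% of the exon bases of Grin3b, and the library kit does not mark strand, so reads of that stretch may belong to either gene. ORF61 passed the filter with a typical log2 value of 8 or more as estimated from the rounding, and its own log2 ratio averaged 0.15. For Grin1 an antisense transcript, E130003G02Rik, shares 13.5% of the exon bases. For Grin2b and Grin2c small RNA genes or antisense transcripts share at most 1.81%.

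**Figure D3:**
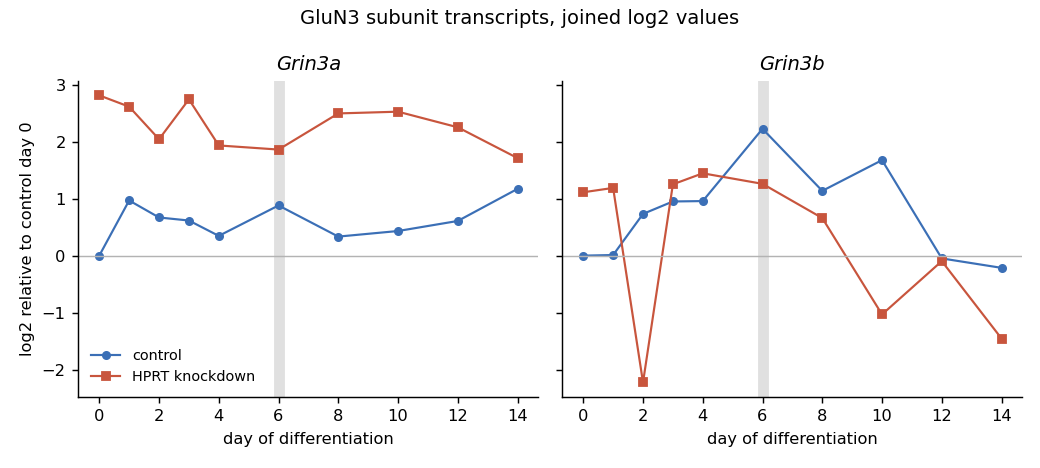
Joined log2 values of Grin3a and Grin3b relative to the control library of day 0, by day, blue circles for the control line and red squares for the knockdown line; the gray band marks day 6. The knockdown values of Grin3a (1.71 to 2.81) lie above its control values (0 to 1.17), while the lines cross for Grin3b.

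The next comparison asked whether the subunits rose or fell as the cells differentiated, and whether the lines differed in this. Slopes were fitted with limma on the 9 days, in log2 units per day. In the control line Grin1 rose by 0.18 ± 0.035 per day (SE; adjusted p = 0.0041), Grin2b by 0.23 ± 0.045 (adjusted p = 0.0041) and Grin2d by 0.19 ± 0.012 (adjusted p = 0.00019). Grin3a had a slope of 0.014 ± 0.024 (adjusted p = 0.66). Thus 3 of the 4 members over the filter were called and all 3 rose, beside 43.6% of genes called and 19.7% called as rising. Without a filter 4 of 7 members were called (Grin2c as well), beside 35.7% of genes. The Grin2c slope of 0.15 rests on the control table of days 3 and 4, which disagrees with the other tables by 0.92 log2 units for this gene. With that step taken through the knockdown tables it was 0.070.

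In the knockdown line no slope of the 4 members over the filter was called by limma, beside 13.1% of genes, and none had an unadjusted p under 0.05. The slopes were 0.023 ± 0.040 for Grin1, -0.13 ± 0.061 for Grin2b, 0.064 ± 0.037 for Grin2d and -0.039 ± 0.024 for Grin3a (SE). Without a filter no member was called either, beside 8.77% of genes. There Grin2a was at -0.15 ± 0.049 (SE; limma, unadjusted p = 0.018, adjusted 0.096) and Grin2c at -0.14 ± 0.058 (unadjusted p = 0.044, adjusted 0.16). The difference between the lines was tested itself, as the slope of the daily ratio. It was negative for all 7 members, beside a median of 0.0056 over the genes that passed the filter. The member slopes are not independent, since they share the same libraries. On day 0 the ratio of each member was above 0. Grin1 (-0.15 ± 0.037 per day, adjusted p = 0.033) and Grin2b (-0.37 ± 0.098, adjusted p = 0.039) were called, 2 of the 4 members over the filter, beside 14.0% of genes called and 6.61% called as falling. Grin2d was at -0.11 ± 0.040 (adjusted p = 0.095), and was called with log2(day + 1) in place of day (adjusted p = 0.048). Grin3a was at -0.063 ± 0.036 (adjusted p = 0.25). Both calls sit near the threshold. Without a filter the adjusted p was 0.051 for Grin1 and 0.062 for Grin2b. Leaving out day 0, 1, 4, 10, 12 or 14 ended the Grin1 call (slopes over all left-out days -0.17 to -0.12, highest adjusted p 0.085), and leaving out day 1, 8, 10, 12 or 14 ended that of Grin2b (slopes -0.39 to -0.25, highest adjusted p 0.11). Without day 0 the Grin2b slope was -0.25 and was still called (adjusted p = 0.044).

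**Figure D4:**
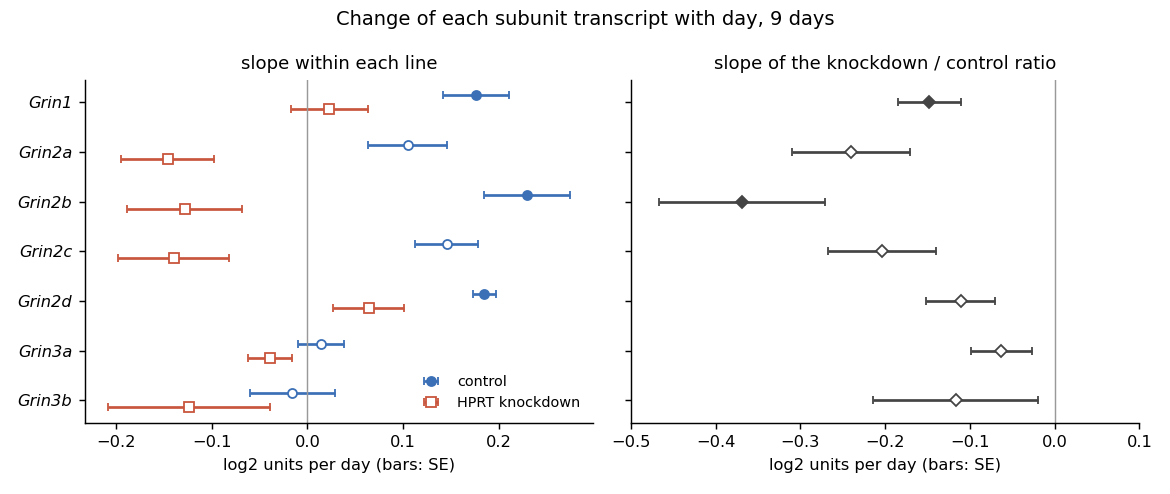
Slopes on day, in log2 units per day with standard errors over 9 days, for the 7 subunit genes: on the left in the control line (blue circles) and the knockdown line (red squares), on the right for the knockdown over control ratio. Filled symbols passed the test among genes over the filter; Grin2a, Grin2c and Grin3b fell under the filter and are from the fit without it. All 7 ratio slopes, which share the same libraries, lie below 0, and 2 are filled.

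The balance of Grin2a and Grin2b is the usual developmental index of the receptor, since GluN2A replaces GluN2B in many neurons after birth. Their levels were set side by side as shares of the 4 Grin2 transcripts per kilobase of exon. In the control line Grin2a was above Grin2b on day 0 (18.5% and 7.51%) and on day 1 (42.8% and 13.6%), and below it on each later day. In the knockdown line Grin2a was above Grin2b on day 4 (18.8% and 6.71%) and on day 6 (39.6% and 9.41%), and below it on the other days. The days on which Grin2a led thus differed between the lines. The log2 ratio of knockdown over control was lower for Grin2a than for Grin2b on 5 of 9 days and higher on 4, and the difference averaged -0.76 ± 1.94 (SD, 9 days). It did not pass the exact two-sided sign-flip permutation test (exact p = 0.27, smallest possible 0.0039). The day 0 difference alone was -4.14, and without it the mean was -0.34.

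Among the Grin2 transcripts per kilobase, Grin2d took 50.1% to 51.4% in the control libraries of days 8 to 14 and 57.5% to 83.3% in the knockdown libraries of those days. Grin2b took 25.4% to 31.2% of the control and 6.09% to 27.5% of the knockdown libraries. Grin2a took 13.7% to 16.0% against 2.56% to 11.3%. Grin2c took 3.58% to 8.42% against 4.38% to 14.4%. The ranges of the lines, 4 libraries each, overlapped for Grin2b and Grin2c and not for Grin2d and Grin2a. A share depends on the other Grin2 transcripts too. The level of Grin2d itself was about equal on day 8 (log2 ratio 0.0024) and lower in the knockdown after it (-1.28, -0.76 and -0.50). Grin2a held 2 or 3 reads in the knockdown libraries of days 10, 12 and 14. In the early days Grin2c took 4.16% to 18.1% in the control and 11.7% to 39.9% in the knockdown libraries of days 0 to 4. These shares come from the reads given above and add no test of their own.

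**Figure D5:**
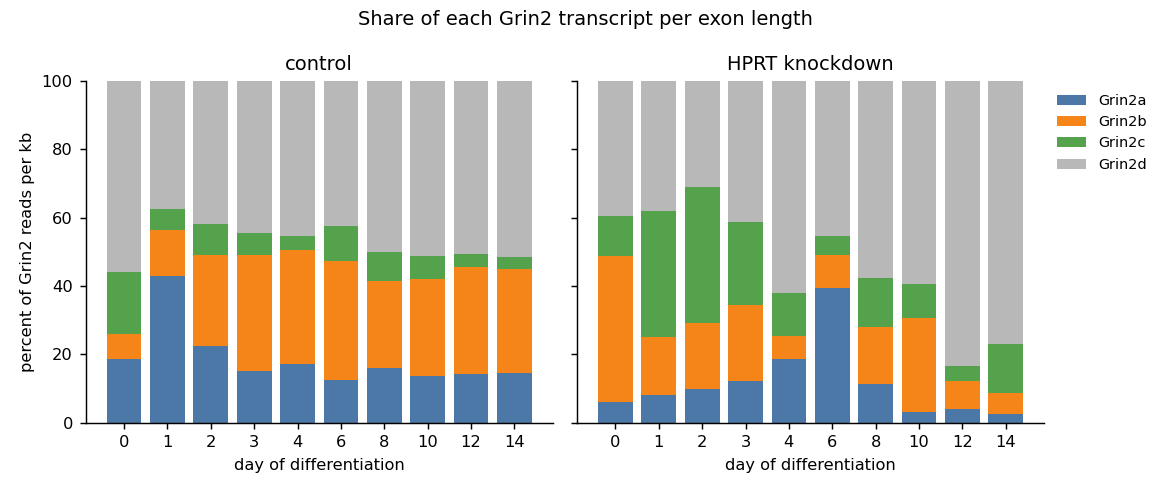
Share of each Grin2 transcript in the sum of the 4, as normalized reads per kilobase of exon, in percent (bars start at 0), by day in the control line (left) and the HPRT knockdown line (right). Grin2d fills 83.3% of the knockdown bar of day 12 and 50.6% of the control bar of that day.

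The genes most like each member over the 20 libraries were named by the Pearson correlation of joined log2 values, as a description. Points share the day, the line and the size factor. Grin1 was nearest to Tmem145 (r = 0.95) and Ly6h (r = 0.95), and Grin2d to Map3k12 (r = 0.95) and Rabgap1l (r = 0.92). Grin2b was nearest to Nbea (r = 0.87) and Iqsec3 (r = 0.84), and Grin3a to Ptgs1 (r = 0.94) and Fam120c (r = 0.93). Among the members, Grin1 correlated with Grin2d at 0.79 and with Grin2b at 0.61, and Grin3a with none of these above 0.011. The ratio slopes of Tmem145 (-0.19), Ly6h (-0.20), Nbea (-0.10) and Iqsec3 (-0.35 per day) were negative, which is given as a description, since the same values chose these genes.

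Genes that anchor the receptor or act around it moved in both directions. Of 20 scaffold and anchoring genes 18 passed the filter, and over the course 4 were called higher, 5 lower and 9 not, with a median log2 ratio of -0.028 beside 0.0056 over all genes tested. Dlg4, which encodes the scaffold PSD-95, was higher by 0.70 ± 0.17 (SE; adjusted p = 0.0064). Dlgap1, a PSD-95 binding protein, was the highest of those called at 1.55 ± 0.16, and its relative Dlgap3 the lowest at -1.04 ± 0.31. The slope of the ratio was called as falling for 5 of the 18 (Shank1, Dlgap3, Dlg2, Homer2 and Dlg4) and as rising for none, beside 6.61% of all genes called as falling and 7.43% as rising.

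Of 26 genes that carry the signal from the receptor, 23 passed the filter, 10 were called higher and 5 lower, with a median of 0.045. Fyn, a kinase that phosphorylates GluN2B, was the highest of those called at 1.11 ± 0.24 (SE), and Actn2, an actinin that binds GluN1, the lowest at -3.39 ± 0.92. Camk2a, the kinase subunit of synaptic plasticity, was at 0.043 ± 0.66 (adjusted p = 0.96). Nos1, the synthase tethered to PSD-95, fell under the filter and was not tested. The ratio slope was called as falling for 5 of the 23 (Ptpn5, Cdk5r1, Kalrn, Camk2g and Camk2b) and as rising for 1, Fyn, beside the same shares of all genes.

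For co-agonist supply and transport, 10 of 12 genes passed the filter, with 3 called higher, 2 lower and a median of -0.026. Slc6a9, the glial glycine transporter GlyT1, was the highest at 1.56 ± 0.10 (SE), and Srr, which makes D-serine, was higher at 0.69 ± 0.10 (adjusted p = 0.00040). Shmt1, which interconverts serine and glycine, was the lowest at -1.20 ± 0.13. Of 13 genes of glutamate supply and clearance 12 passed, with 5 called higher, 5 lower and a median of -0.013. Slc17a6, the vesicular transporter VGLUT2, was the lowest at -2.98 ± 0.54 (adjusted p = 0.0014), and Slc1a1, the neuronal uptake carrier EAAC1, the highest at 2.32 ± 0.57. Of 6 surface partners and regulators 3 were called higher and 1 lower, with a median of 0.32. Nlgn1, the postsynaptic adhesion protein neuroligin, was the highest of those called at 1.47 ± 0.086 (SE), and Rest, the repressor of neuronal genes, the lowest at -0.61 ± 0.15 (adjusted p = 0.0069). The ratio slope was called for none of the 10 co-agonist genes, as rising for 1 of the 12 glutamate genes (Slc1a1) and 1 of the 6 surface partners (Neto1), and as falling for none in these lists. From 9 of 18 to 10 of 12 genes of a list were thus called over the course, beside 52.5% of all genes tested.

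Levels of cell type markers also differed between the lines over these days. The mean log2 ratio of the 10 neuronal markers over the filter was -0.88 over days 0 to 4 and -2.09 over days 8 to 14, where Grin1 was at -1.24, Grin2b at -2.29 and Grin2d at -0.63. Relative to the control library of day 0, the mean of these markers ran from -0.78 to 0.76 in the control line and from -2.05 to -0.30 in the knockdown line. On day 0 it differed little between the lines (-0.29), while Grin2b was at 4.49 and Grin1 at 0.95. The 9 oligodendrocyte lineage markers averaged 0.61 over days 0 to 4 and 3.66 over days 8 to 14, and the 5 astrocyte and radial glia markers 1.13 and 2.06. The 6 fibroblast markers averaged 0.28 and -0.75, the 6 pluripotency markers -2.69 and -2.55, and the 6 dopaminergic markers 0.91 and 0.62. Grin3a was at 1.91 and 1.62 on those days. The part of cell composition in the subunit values was not tested.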

How the data were processed

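RNA was sequenced in 20 libraries (10 days, 2 lines), made with a kit that does not mark strand. The authors aligned reads to mm9 with ELAND in CASAVA 1.8.2, counted them per gene in Avadis NGS, applied the DESeq normalization and deposited log2 values relative to the mean of the 2 libraries of a table, in 28 tables: 10 of the same day and 9 of consecutive days per line. The lane of each library is not given in the sources used here, and no columns of other samples were present (0).

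Log2 ratios were taken within the same-day tables. Time courses add the steps of the consecutive-day tables from day 0. Joined values fit 27 tables by least squares; in these 88.0% to 100% of genes over the filter matched within 1e-05, against 0.0514% in the control table of days 3 and 4, which was left out of the join. Levels were estimated from the rounding of the deposited values. A fine step shows a low value, while a coarse step can also occur at a low value. Grin2a, with at most 47 reads, had the step of a log2 value of 8 or more in 4 tables. By the typical step over tables, 13626 of 19041 genes with a value other than 0 reached a log2 normalized count of 4. Reads were recovered where at least 17 of 20 libraries fell on a multiple of 1/49 read (tolerance 0.002 of such a step plus a relative 6e-07), which held for 5 members and Hprt. Since low genes carry few reads, exact binomial 95% intervals are given and cover counting error only. Levels between genes are per kilobase of merged exons (NCBIM37, the assembly of mm9).

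Tests used limma 3.58.1 (R 4.3.3) on 9 days with Benjamini-Hochberg adjustment over all genes fitted and a threshold of 0.05, and exact two-sided sign-flip tests over 512 patterns in Python 3.11.15 with scipy 1.17.1. The libraries of a day were paired as the study did; deviations of the 2 libraries from their line means correlated at -0.0120 on day 0 and above 0.1 on the other 8 days. The scripts were tested on simulated data. Members were taken by symbol, and named are all members, Hprt, the 2 genes most correlated with each member over the filter, and from each pathway list the highest and lowest gene called and a textbook representative. Members and lists were chosen with earlier results of these data known; the genes whose ratio slope was called were named after their values were seen. Alternatives were other filters, day 6 kept, each day left out, another scaling, an unpaired fit, log2(day + 1), a pseudocount of 1 on recovered reads and, chosen after seeing the data, a detour around the control table of days 3 and 4.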

Additional observations from a re-analysis of the deposited data

Results flagged for a closer look

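Of 21 groups of 10 values examined for a value far from the others, 2 held one, both of Grin2b on day 0: the log2 ratio of 4.49, and the knockdown level of 4.48 log2 units above the control library of day 0. Chance alone would mark about 1 in 20 such groups. The 2 flagged values are not independent, since both rest on the knockdown library of day 0. The control library of that day held 5 Grin2b reads and the knockdown library 165. Between the lines, the trend over the days differed by the test of the ratio slope for Grin1 (-0.15 log2 units per day, limma, adjusted p = 0.033) and Grin2b (-0.37, adjusted p = 0.039). On day 6, which entered no test, Grin2a was higher in the knockdown with a ratio of 3.34 (exact 95% interval 1.56 to 8.11), while it was lower on 7 of the 9 tested days.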

How the results depend on the processing

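Of 356 values of single members under alternatives, 216 came with a test, and 196 of these kept their direction and their side of the threshold. Of the 140 without a test, 138 kept their direction. In all 6 changed sign, none of them called: the Grin2d mean ratio without day 10 (0.062), the Grin3a control slope without day 0 (-0.0046) or day 14 (-0.013), the Grin3b control slope without day 12 (0.0078) or day 14 (0.031), and the Grin1 knockdown slope with log2(day + 1) (-0.0083). With a day left out, that Grin2d mean ran from -0.28 to 0.062 and that Grin3a slope from -0.013 to 0.031. The higher level of Grin3a in the knockdown was called under each alternative it was fitted in (the filter at a log2 count of 8 removed it), with means of 1.66 to 1.94 when a day was left out. The number of genes called for a ratio slope was 1913, 1068 with day 6 kept and 607 to 1653 when a day was left out. For the control slope it was 5943, 3933 with log2(day + 1) and 4622 to 6275 with a day left out. For the knockdown slope it was 1788, 129 with log2(day + 1) and 170 to 2964 with a day left out. The cause was not tested. For the mean ratio it was 7149, 6263 to 7274 with a day left out, and 5761 without the pairing of days (no replicate block), which changed no call of a member over the filter. The balance of Grin2a and Grin2b ran from -1.16 to -0.34 with a day left out. Depth limits Grin2a (2 to 47 reads per library), Grin2c (3 to 43) and Grin3b most.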
